A study of Mus musculus with 7 samples.

Results

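Virtual memory (VM) and true naive (TN) CD8+ T cells of neonatal mice were compared by their microRNAs (miRNAs), using 2 libraries of neonatal VM cells and 1 library of neonatal TN cells. These 3 libraries were chosen by their titles out of 7 in the series. All cells came from the spleen of gBT-I mice, which carry a transgenic T cell receptor. VM cells were sorted as CD44hi CD122hi and TN cells as CD44lo CD122lo. The other 4 libraries, 2 of adult VM and 2 of adult TN cells sorted by the same markers, were used to estimate the spread and to ask where the neonatal difference departs from the adult one. Library totals were 1577031 and 3006539 counts for neonatal VM, 2982273 for neonatal TN and 2056813 to 3278451 for the adult libraries. The labels used here give neither the ages in days nor whether a library came from 1 animal or a pool, so the spread measured here may be technical. Neonatal TN values have no SD, and every test below assumes that this lone library varies like the others.

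MiRNAs are short RNAs that guide Argonaute proteins to messenger RNAs, mostly by pairing through the seed at their 5′ end, and lower the output of those messages. Each hairpin precursor can give a guide strand, which is kept, and a passenger strand, which is mostly lost. Among the miRNAs of T cells, miR-181a raises sensitivity to T cell receptor signals in thymocytes. Others, such as miR-21 and miR-155, rise when T cells are activated. VM cells are antigen-inexperienced cells with memory markers. They are common among CD8+ T cells that arise early in life.

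The comparison turned on a small number of mature sequences, printed 5′ to 3′ from RefSeq (GRCm38.p6) with the seed, bases 2 to 8, in capitals. The first set shows the largest decreases in neonatal VM cells among miRNAs that passed the test and had a sequence matched by name. They were of miR-181a, miR-181b, miR-211 and miR-132, printed with relatives that share their seeds (miR-181c and miR-181d, miR-204, and miR-212). MiR-151-3p, described below, fell by more than miR-132-3p but had no matched sequence.
miR-181a-5p: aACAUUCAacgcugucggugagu
miR-181b-5p: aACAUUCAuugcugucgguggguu
miR-181c-5p: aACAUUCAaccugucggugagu
miR-181d-5p: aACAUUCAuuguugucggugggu
miR-181a-1-3p: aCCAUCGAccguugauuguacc
miR-181a-2-3p: aCCACCGAccguugacuguacc
miR-211-5p: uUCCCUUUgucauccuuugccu
miR-204-5p: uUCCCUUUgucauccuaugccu
miR-132-3p: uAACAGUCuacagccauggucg
miR-212-3p: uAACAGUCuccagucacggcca

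The let-7 and miR-146 members are shown because, with a common seed, some passed the test and others did not. The remaining ones are miRNAs that were higher in neonatal VM cells, with miR-221-3p, which did not pass, beside its relative miR-222-3p. Counted from the 5′ end, let-7b-5p differs from let-7a-5p by A17G and A19G, let-7c-5p from let-7a-5p by A19G, and miR-146b-5p from miR-146a-5p by G18A and U21C.
let-7a-5p: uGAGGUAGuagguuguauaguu
let-7b-5p: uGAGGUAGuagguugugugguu
let-7c-5p: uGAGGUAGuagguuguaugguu
miR-146a-5p: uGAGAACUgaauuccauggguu
miR-146b-5p: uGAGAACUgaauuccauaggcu
miR-21a-5p: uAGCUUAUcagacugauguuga
miR-21a-3p: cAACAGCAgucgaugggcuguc
miR-222-3p: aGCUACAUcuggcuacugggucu
miR-221-3p: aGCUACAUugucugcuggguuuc
miR-29c-3p: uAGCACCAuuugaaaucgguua
miR-340-3p: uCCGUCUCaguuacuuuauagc

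Neonatal VM cells had less miR-181a, miR-181b, miR-211, miR-151 and miR-132 than the neonatal TN library, and more miR-21a, miR-340-3p, miR-222-3p and miR-29c. Of 288 miRNAs tested, 28 (9.72%) passed at an adjusted p of at most 0.05 (edgeR quasi-likelihood test, Benjamini-Hochberg over the 288), 9 (3.12%) higher and 19 (6.6%) lower in VM cells. The tested miRNAs are those with at least 10 CPM, the counts scaled to a common library size, in at least 2 of the 7 libraries. For each of the 28, the difference was larger than the gap between both VM libraries, which was at most 1.02 on the log2 scale. The 28 were picked by a test on these same libraries, which favours this outcome, so it lends the calls no further support. The split of 9 higher and 19 lower is relative to the centre that TMM scaling sets. It was 21 higher and 14 lower with library totals, where the median of all tested miRNAs moved up by 0.25 on the log2 scale, and 38 higher and 14 lower with upper quartile factors, where it moved by 0.38. With RLE factors it was 14 and 19. All 28 kept their direction under these 3 scalings, and 15 of the 28 passed in every one of 19 alternatives that gave them an adjusted p.

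**Figure D1:**
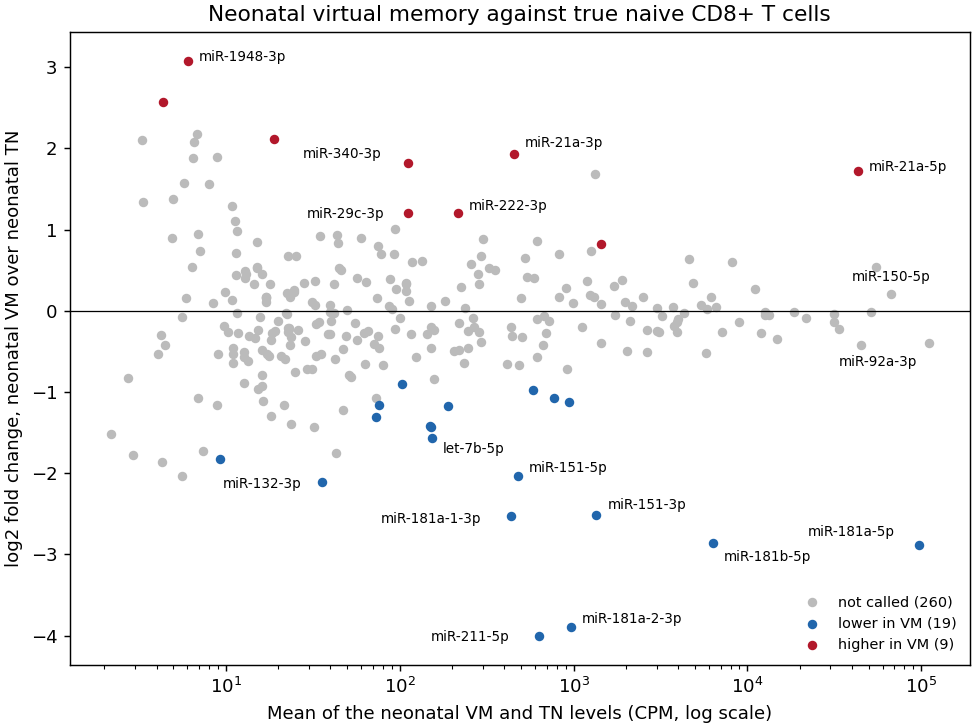
Each point is 1 of 288 tested miRNAs, with the mean of the neonatal VM and TN levels in CPM on a log axis and the log2 fold change of neonatal VM over TN on the y axis; blue and red mark miRNAs past the test. The called miR-181a and miR-181b arms and miR-211-5p lie between -2.53 and -4.0, while miR-21a-5p is the abundant miRNA on the upper side.

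The number that passed moved with the libraries in the fit. Fitted on the 3 neonatal libraries alone, with 1 residual degree of freedom and the spread taken from the VM pair, 80 of 266 miRNAs passed, 44 higher and 36 lower. Without adult VM replicate 1 or 2 the count was 56 or 77, without adult TN replicate 2 it was 16, and without neonatal VM replicate 2 it was 17. Between replicates, log2 differences over the tested miRNAs had an SD of 0.43 in neonatal VM, 0.48 in adult TN and 0.72 in adult VM.

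Among the most abundant miRNAs of neonatal cells, 2 of 10 passed, beside 28 of 288 (9.72%) over all tested miRNAs. MiR-181a-5p stood at 171813 CPM in the TN library, the highest level of any miRNA there, and at 25886 and 20772 CPM in the VM libraries. MiR-21a-5p went the other way, from 20011 CPM to 62512 and 69782 CPM. The other 8 did not pass. MiR-150-5p, the abundant lymphocyte miRNA that targets Myb, was at 62258 CPM in TN and 77562 and 66475 CPM in VM cells (log2 fold change 0.21 with SE 0.20, edgeR adjusted p = 0.593). MiR-92a-3p, of the miR-17 cluster, was at 125142 CPM in TN and 101966 and 88706 CPM in VM cells (-0.39, edgeR adjusted p = 0.261). MiR-16-5p was nearly level, at 51417 CPM against 52154 and 49668 CPM. MiR-142a-5p, which marks blood cells, was at 44947 CPM in TN and 53980 and 76881 CPM in VM cells (0.54, edgeR adjusted p = 0.371). The log2 fold changes of miR-26a-5p, miR-191-5p, miR-27b-3p and let-7f-5p lay between -0.42 and -0.04. The 4 lymphocyte markers were miR-150-5p, both miR-142a arms and miR-181a-5p. All 4 were abundant in all 3 libraries, though miR-181a-5p was far lower in VM cells. These levels match the labelled lymphocytes, but miR-142a marks blood cells in general.

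The miR-181 family held 4 of the 6 largest decreases. MiR-181a-5p, at the levels given above, differed by 7.36-fold (log2 fold change -2.88 with SE 0.23, edgeR adjusted p = 4.20e-06), with a counting interval of 171360 to 172267 CPM for the TN library (95% Poisson interval, which covers counting error only, since reads are not independent molecules). MiR-181b-5p fell alongside, from 11116 CPM to 1703 and 1349 CPM (-2.86, SE 0.25, edgeR adjusted p = 7.30e-06). The VM libraries lay far below TN for both. Their relatives with the same seed did not follow. MiR-181c-5p was at 18662 CPM in TN and 17569 and 19443 CPM in VM cells (-0.01, edgeR adjusted p = 0.965), so the TN value lay between the VM values. MiR-181d-5p was at 4289 CPM in TN and 3598 and 3564 CPM in VM cells (-0.26, edgeR adjusted p = 0.587). The family median was -1.56, against -0.11 over all tested miRNAs. Adding up the 4 members, the TN library held 205880 CPM and the VM libraries 48756 and 45127 CPM.

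Genes of miR-181a and miR-181b, which fell, lie elsewhere in the genome than that of miR-181d, which did not pass. No locus is given here for miR-181c. MiR-181a and miR-181b are made from a pair of clusters. Mir181a-1 (chromosome 1, 137966455 to 137966541) and Mir181b-1 (chromosome 1, 137966639 to 137966718) lie in an intron of Gm4258, Mir181b-1 also within an exon of A430106G13Rik. Mir181a-2 (chromosome 2, 38852735 to 38852810) and Mir181b-2 (chromosome 2, 38853830 to 38853918) lie in no host gene of their strand (GRCm38). MiR-181d comes from chromosome 8 (84178716 to 84178787), in an intron of Nanos3. The mature miR-181a-5p is common to both clusters, but the passenger strands tell them apart. MiR-181a-2-3p was 14.9-fold lower, at 1813 CPM in TN against 132 and 113 CPM in VM cells (log2 fold change -3.89 with SE 0.26, edgeR adjusted p = 1.11e-06). MiR-181a-1-3p was 5.77-fold lower, at 744 CPM against 138 and 120 CPM (-2.53, SE 0.24, edgeR adjusted p = 1.06e-05).

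Set against each other within a library, the passenger strand of Mir181a-2 outnumbered that of Mir181a-1 by 2.44 to 1 in neonatal TN cells (5825 and 2392 counts). In the neonatal VM libraries the ratio was 0.953 and 0.939, in adult TN 0.623 and 0.702, and in adult VM 0.335 and 0.301. The neonatal TN library thus had the highest ratio of the 7, and within each age VM was below TN. The ratio was chosen after its values were seen and was not tested. The passenger strand of miR-181c, which shares the seed of miR-181a-1-3p, had a log2 fold change of 0.16.

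MiR-211-5p had the largest decrease of any tested miRNA. It is made from an intron of Trpm1 (chromosome 7, 64205806 to 64205911), a gene best known in pigment cells and retina, and in the TN library it stood at 1199 CPM (3852 counts) against 85.0 and 65.1 CPM in VM cells. That is a 16-fold difference (log2 fold change -4.0 with SE 0.33, edgeR adjusted p = 1.08e-05). MiR-204-5p, of the same seed, comes from an intron of Trpm3 (chromosome 19, 22750605 to 22750672). It was too low to be tested, at 34 counts in TN and 2 and 5 counts in VM cells.

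The other decreases included both arms of miR-151. MiR-151-3p, whose hairpin lies within the focal adhesion kinase gene Ptk2, was at 2305 CPM in TN and 435 and 375 CPM in VM cells, 5.69-fold lower (log2 fold change -2.51 with SE 0.24, edgeR adjusted p = 1.06e-05). MiR-151-5p was at 769 CPM in TN and 213 and 163 CPM in VM cells (-2.03, SE 0.26, edgeR adjusted p = 1.78e-04). MiR-128-3p, encoded in introns of R3hdm1 and Arpp21, fell by 1.12 (1293 CPM in TN, 644 and 542 CPM in VM cells; edgeR adjusted p = 0.0092), though it did not pass without adult TN replicate 2 or neonatal VM replicate 2. MiR-351-5p, from a cluster on the X chromosome, fell by 0.97 (770 CPM against 372 and 414 CPM; edgeR adjusted p = 0.0185), and did not pass with library totals or upper quartile factors, nor without either adult TN or either neonatal VM replicate. MiR-92b-3p fell by 0.90 (133 CPM against 74.2 and 69.5 CPM; edgeR adjusted p = 0.0402) and was lost in 9 of 19 alternatives, among them those factors, limma voom, non-robust dispersions and leaving out either adult TN or either neonatal VM replicate. MiR-486a-5p was at 220 CPM in TN and 86.0 and 76.8 CPM in VM cells (-1.44, SE 0.27, edgeR adjusted p = 0.00475). MiR-486b-5p, at 216 against 86.0 and 75.8 CPM, nearly repeats it and may count the same reads, so the pair is 1 observation.

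**Figure D2:**
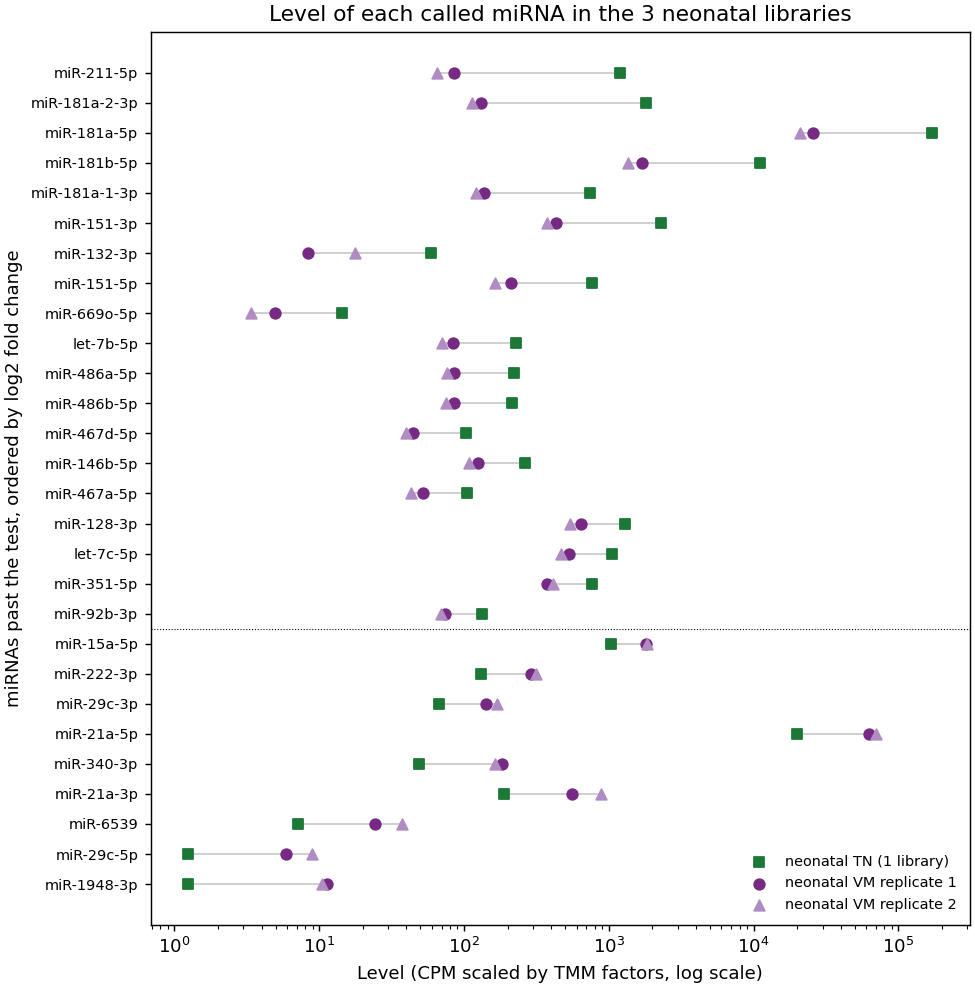
For each of the 28 miRNAs past the test, the level in CPM (log axis) is shown in the neonatal TN library (square) and in neonatal VM replicates 1 and 2 (circle and triangle); the dotted line separates 19 lower from 9 higher in VM. The VM symbols lie on 1 side of the TN symbol in every row, an outcome that picking the rows by the test favours. They lie farthest apart for miR-132-3p, at 8.41 and 17.8 CPM.

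Erythroid cells are a known source of miR-486, so the markers of other cells are given beside it. MiR-451a, the defining erythroid miRNA, had 31 counts in TN and 12 and 11 counts in VM cells (9.65, 5.93 and 2.87 CPM), and miR-144-5p was at 0 in all 3 neonatal libraries. The 5 erythroid markers summed to 446 CPM in TN and 178 and 156 CPM in VM cells, nearly all of it miR-486a-5p and miR-486b-5p, whose shared reads this sum may count in both. The 4 myeloid markers summed to 31.7 CPM in TN and 89.0 and 33.7 CPM in VM cells. The 1 tested, miR-10a-5p, was at 29.6 CPM in TN and 85.0 and 29.5 CPM in VM cells and did not pass. MiR-223-3p had 5 counts in TN and 2 and 15 counts in VM cells. Stromal and muscle markers summed to 98.3 CPM in TN and 71.2 and 60.6 CPM in VM cells, with 0 of 2 tested members past edgeR's test (0 at an unadjusted p under 0.05, and 0 by DESeq2 and limma voom) and miR-214-3p, miR-1a-3p and miR-206-3p at 0. The endothelial pair summed to 56.9 CPM in TN and 54.4 and 75.8 CPM in VM cells, and neither passed. Epithelial markers summed to 908 CPM in TN and 1024 and 1074 CPM in VM cells, and 0 of 7 tested passed with edgeR, DESeq2 or limma voom (1 at edgeR's unadjusted p under 0.05, miR-200a-3p, and 1 with upper quartile factors). The hepatocyte marker miR-122-5p was at 0. The part of other cells in the miR-486 difference was not tested. In sorted bulk cells, fewer cells of a type and less RNA per cell cannot be told apart.

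T cell activation miRNAs did not move as a block. Of 13 listed, 12 were tested, 2 were higher in VM cells, 2 were lower and 8 did not pass, beside 9.72% called over all tested miRNAs, with a median log2 fold change of 0.19 against -0.11 over all tested miRNAs. With library totals or upper quartile factors, 5 were higher and 1 was lower, and DESeq2 called 6 of the 12 and limma voom 4. At edgeR's unadjusted p under 0.05, 5 were higher and 2 lower, beside 32 higher and 34 lower of all 288. MiR-21a-5p, which rises on activation, was 3.31-fold higher in VM cells (log2 fold change 1.72 with SE 0.27, edgeR adjusted p = 0.00135). Its passenger strand miR-21a-3p was higher as well, at 556 and 887 CPM in VM and 189 CPM in TN cells (1.93, SE 0.31, edgeR adjusted p = 0.00149). MiR-222-3p, which represses the cell cycle inhibitor p27, was at 291 and 316 CPM in VM and 132 CPM in TN cells (1.20, SE 0.28, edgeR adjusted p = 0.0141). Its neighbour on the X chromosome, miR-221-3p, which has the same seed, was at 118 and 133 CPM in VM and 62.2 CPM in TN cells (1.01, SE 0.31, edgeR adjusted p = 0.0609). Mir222 (chromosome X, 19146893 to 19146971) and Mir221 (chromosome X, 19146294 to 19146388) lie in no host gene of their strand.

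The lower activation miRNAs were miR-132-3p and miR-146b-5p. MiR-132-3p, induced by CREB, was at 58.8 CPM in TN and 8.41 and 17.8 CPM in VM cells (log2 fold change -2.11 with SE 0.48, edgeR adjusted p = 0.0138), and it did not pass without adult TN replicate 2 or neonatal VM replicate 1. MiR-212-3p, made from the same transcript unit (Mir212 at 75173388 to 75173478 and Mir132 at 75173682 to 75173747 on chromosome 11), reached the CPM minimum in the neonatal TN library only and so was not tested. It had 96 counts in TN and 9 and 8 counts in VM cells (29.9, 4.45 and 2.09 CPM). All 4 adult libraries held between 1.38 and 3.0 CPM of it.

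MiR-146b-5p and miR-146a-5p, which share a seed and restrain NF-kB signalling, lay on opposite sides of 0. MiR-146b-5p was at 262 CPM in TN and 125 and 108 CPM in VM cells (log2 fold change -1.18 with SE 0.29, edgeR adjusted p = 0.0185). This call was lost with library totals, upper quartile factors and the replicate block, without either adult TN replicate and without either neonatal VM replicate. MiR-146a-5p was at 438 CPM in TN and 750 and 840 CPM in VM cells (0.86, SE 0.27, edgeR adjusted p = 0.0713). Mir146b lies in an intron of Mfsd13a (chromosome 19, 46342762 to 46342870). MiR-155-5p, from the activation-induced Bic transcript, was at 206 CPM in TN and 322 and 294 CPM in VM cells (0.58, SE 0.25, edgeR adjusted p = 0.175). The log2 fold changes of the activation miRNAs miR-182-5p (-0.18), miR-183-5p (-0.48), miR-96-5p (0.54), miR-210-3p (-0.17) and miR-31-5p (-0.50) did not pass either.

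The remaining increases were led by miR-340 and miR-29c. MiR-340-3p, from an intron of Rnf130, was at 183 and 164 CPM in VM and 49.2 CPM in TN cells, 3.53-fold higher (log2 fold change 1.82 with SE 0.36, edgeR adjusted p = 0.00585). Its more abundant arm miR-340-5p was at 1709 and 2349 CPM in VM and 633 CPM in TN cells and did not pass (1.68, SE 0.50, edgeR adjusted p = 0.0999). MiR-29c-3p, of a family that represses T-bet and interferon gamma, was at 143 and 168 CPM in VM and 67.5 CPM in TN cells (1.21, SE 0.27, edgeR adjusted p = 0.0123). It did not pass without neonatal VM replicate 2. Its passenger strand miR-29c-5p rested on 4 counts in TN (2.57, SE 0.70, edgeR adjusted p = 0.038) and was lost in 6 of 16 alternatives, limma voom and the replicate block among them. MiR-29a-3p (0.39) and miR-29b-3p (0.33) did not pass, although Mir29b-2 lies beside Mir29c within A330023F24Rik on chromosome 1 (195037040 to 195037120 and 195037547 to 195037634). MiR-15a-5p, of the miR-16 family, was at 1823 and 1828 CPM in VM and 1032 CPM in TN cells (0.82, SE 0.23, edgeR adjusted p = 0.0402). It did not pass in 6 alternatives, among them the replicate block. MiR-1948-3p (3.08, edgeR adjusted p = 0.0185) and miR-6539 (2.12, edgeR adjusted p = 0.0185) were low, with 4 and 23 counts in TN. MiR-1948-3p reached 10 CPM only in the 2 neonatal VM libraries. It thus entered the test through the group where it was high, and its p is not independent of the filter. MiR-6539 did not pass without adult TN replicate 1 or 2.

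In 8 of 66 hairpin names with both arms tested, at least 1 arm passed, beside 9.72% of single miRNAs called over all 288. Both arms passed in the same direction for miR-21a, miR-29c and miR-151, and for the other 5 the second arm had the same sign. Over all 66 names, the arms had the same sign in 41. Arms were paired by name, so miR-181a, whose passenger strands carry a locus number, is not among the 66.

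**Figure D3:**
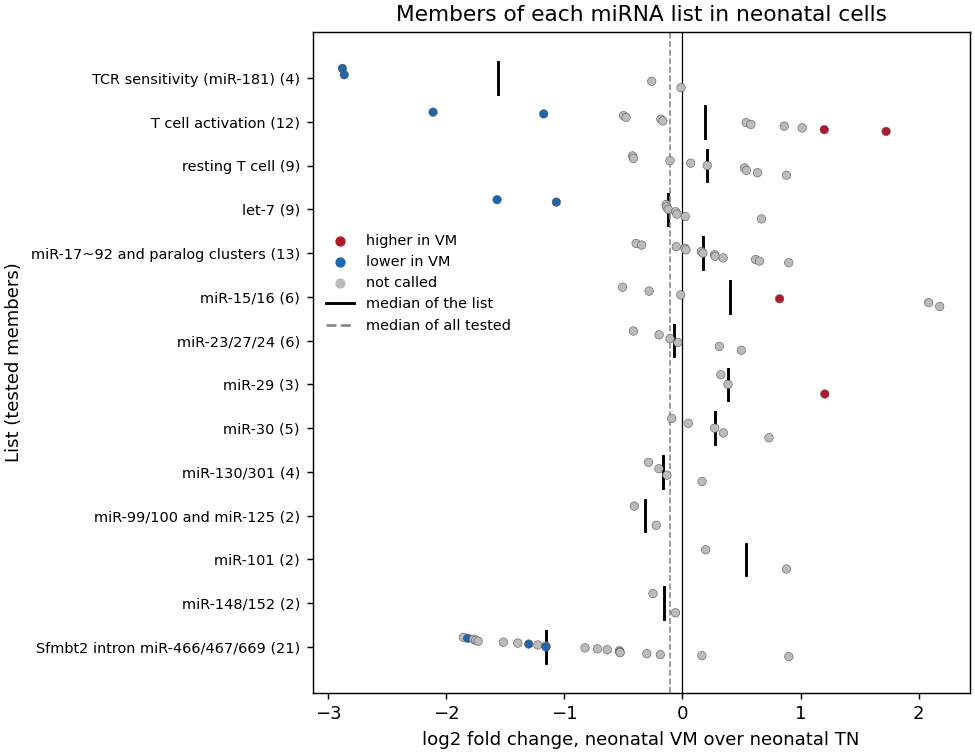
Log2 fold change of neonatal VM over TN for each tested member of 14 miRNA lists, with red and blue for members past the test, black bars for list medians and a dashed line for the median of all tested miRNAs (-0.11, TMM scaling). In the miR-181 and let-7 lists the called members stand apart from the rest of their list, while the Sfmbt2 list lies mostly below 0, with a median of -1.16.

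In the let-7 family, which LIN28 holds down early in life, 2 of 9 members were lower in VM cells, beside 6.6% lower over all tested miRNAs. Let-7b-5p was at 228 CPM in TN and 84.1 and 70.0 CPM in VM cells (log2 fold change -1.57 with SE 0.26, edgeR adjusted p = 0.00158). Let-7c-5p was at 1051 CPM in TN and 531 and 471 CPM in VM cells (-1.07, SE 0.23, edgeR adjusted p = 0.0118), a call lost without adult TN replicate 2 and without either neonatal VM replicate. Their genes Mirlet7c-2 (85706603 to 85706697) and Mirlet7b (85707319 to 85707403) lie together in exons of Lncppara on chromosome 15, and a second copy, Mirlet7c-1, in an intron of Mir99ahg on chromosome 16. The 7 others did not pass and lay between -0.14 and 0.67, with the abundant let-7f-5p at 32777 CPM in TN and 29309 and 30249 CPM in VM cells. The family median was -0.12, close to that of all tested miRNAs, and it turned to 0.13 with library totals. Because let-7 sequences are so alike, how reads were divided among them is uncertain.

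The Sfmbt2 intron list held 74 miR-466, miR-467 and miR-669 names and 6 miR-297 names. Of these 80, 21 were tested, none of them miR-297, and 3 were lower, beside 6.6% lower over all tested miRNAs. The other 18 did not pass, and 2 of the 21 lay above 0. The 3 were miR-467d-5p (104 CPM in TN, 44.5 and 40.0 CPM in VM cells; log2 fold change -1.30, edgeR adjusted p = 0.011), miR-467a-5p (105 CPM against 51.9 and 42.8 CPM; -1.16, edgeR adjusted p = 0.0141) and miR-669o-5p (14.3 CPM against 4.94 and 3.40 CPM; -1.82, edgeR adjusted p = 0.0402). With library totals or upper quartile factors only miR-467d-5p passed. At edgeR's unadjusted p under 0.05, 8 of the 21 were lower and 0 higher, beside 34 lower and 32 higher of all 288. DESeq2 and limma voom each called 2. MiR-669o-5p was lost in 10 of 17 alternatives, DESeq2, limma voom and the replicate block among them, miR-467a-5p in 6 of 19, and miR-467d-5p without adult TN replicate 2 or neonatal VM replicate 2. The list was drawn up by the start of the names, and the 3 called members had no sequence matched by name. How alike the members are was not checked here, so their values may not be independent. The list median was -1.16 with TMM and -0.78 with upper quartile factors, about 1.05 below that of all tested miRNAs under each.

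No member passed in the resting T cell list (0 of 9, median 0.21), the miR-17 to miR-92a and paralog clusters (0 of 13, 0.17), the miR-23, miR-27 and miR-24 clusters (0 of 6, -0.07), or the miR-30 (0 of 5, 0.27), miR-130 and miR-301 (0 of 4, -0.17), miR-99 and miR-125 (0 of 2, -0.32), miR-101 (0 of 2, 0.54) and miR-148 (0 of 2, -0.15) families, in edgeR's test with TMM factors. With 9.72% called over all tested miRNAs, lists this short may hold no call without standing apart. At an unadjusted p under 0.05 these were 2 of the resting list (miR-101a-3p and miR-139-5p), miR-106b-5p of the miR-17 clusters, miR-30b-5p and miR-101a-3p, all higher, and none in the other 4 lists. DESeq2 called 1 of the resting list and 1 of the miR-30 family, and limma voom called none in the 8 lists. With upper quartile factors, 3 of the resting list, 2 of the miR-30 family and 1 each of the miR-17, miR-23 and miR-101 lists were higher. The medians of the miR-23, miR-130, miR-99 and miR-148 lists turned positive under that scaling. In the miR-15 and miR-16 family 1 of 6 passed (miR-15a-5p), and in the miR-29 family 1 of 3. With upper quartile factors these were 3 and 2.

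The filter asks for 10 CPM, before TMM scaling, in 2 libraries, so a miRNA that reached this level in the lone neonatal TN library alone could not enter the test. There were 11 such names, and 0 to 10 for each other library. Besides miR-212-3p and miR-204-5p, described above, they included miR-181b-1-3p, the passenger strand of Mir181b-1, with 36 counts in TN and 7 and 3 in VM cells. MiR-449a-5p had 73 counts in TN and 10 and 21 in VM cells. On the X chromosome, miR-542-3p had 59 counts in TN and 8 and 19 in VM cells, and miR-542-5p had 58 against 9 and 15. The TN library is the highest neonatal one for these names by the way they were picked, so no test is given. MiR-204-5p was not particular to it, at 10.6 TMM-scaled CPM there and 6.48 and 12.0 in adult TN cells. A miRNA that reached the minimum in both neonatal VM libraries alone could enter the test, as miR-1948-3p did. That call is counted among the 28 and among the 15 that passed in every alternative that gave them an adjusted p.

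Adult VM and TN cells, which share no library with the neonatal comparison, gave 112 calls of 288 (38.9%) in the same fit. Of the 28 neonatal calls, 18 (64.3%) were also called in adult cells in the same direction, which is 16.1% of the adult calls. Another 4 were called in the opposite direction and 6 were not called in adult cells. The TN group had 2 libraries in adults and 1 in neonates, so the counts of calls are not on a par. MiR-181a-5p (-2.44), miR-181b-5p (-2.29), miR-211-5p (-2.82), miR-132-3p (-2.34), miR-21a-5p (2.55) and miR-29c-3p (0.96) had adult log2 fold changes of the same sign, and none differed from its neonatal value by the test of the difference (edgeR adjusted p = 0.118 to 0.91).

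**Figure D4:**
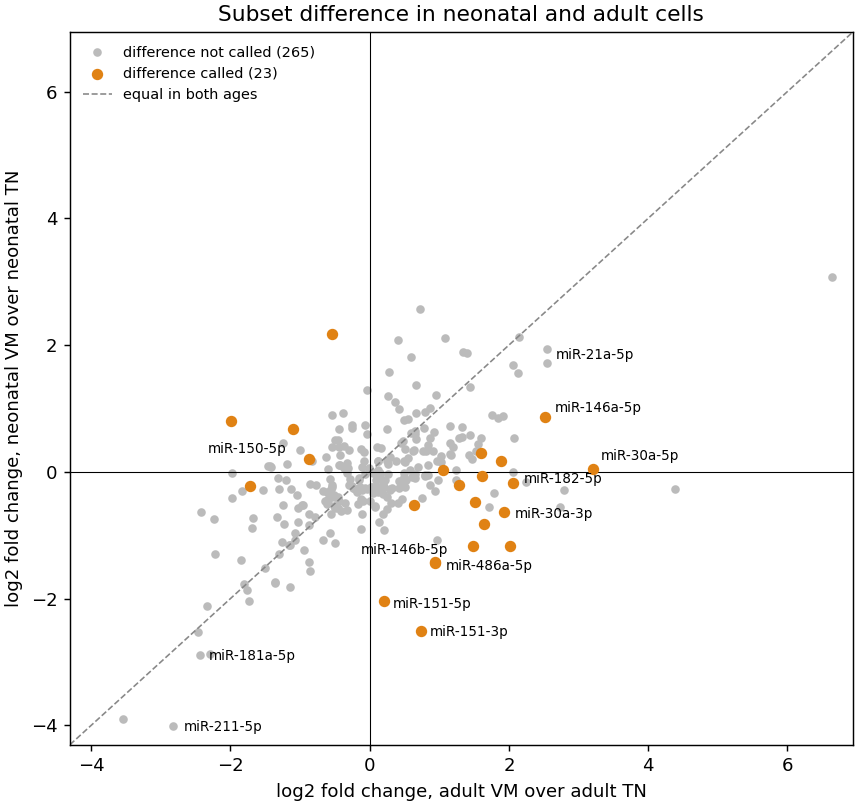
Log2 fold change of VM over TN in adult cells (x axis) and in neonatal cells (y axis) for 288 tested miRNAs; orange marks 23 miRNAs whose difference between the ages passed the test, and the dashed line marks equal values. MiR-181a-5p and miR-211-5p are low in both ages, while miR-151-3p, at -2.51 in neonatal and 0.74 in adult cells, lies far below the line.

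The difference between the neonatal and adult subset effects passed for 23 of 288 miRNAs (7.99%; edgeR quasi-likelihood test of the interaction), and 5 of them were among the 28 neonatal calls. These were both arms of miR-151, miR-146b-5p, miR-486a-5p and miR-486b-5p. MiR-151-3p was 5.69-fold lower in neonatal VM than TN cells, but in adult cells it stood at 2868 ± 236 CPM in VM and 1718 ± 291 CPM in TN (SD, n = 2 each; log2 fold change 0.74; difference -3.25, SE 0.31, edgeR adjusted p = 6.48e-05). The neonatal VM pair lay below the other 5 libraries. MiR-146b-5p was 74.4 ± 14.3 CPM in adult VM and 26.6 ± 1.05 CPM in adult TN cells (1.48, n = 2 each), opposite to the neonatal direction (difference -2.65, SE 0.39, edgeR adjusted p = 0.00108). MiR-486a-5p was 270 ± 33.9 CPM in adult VM and 141 ± 28.9 CPM in adult TN cells (0.93, n = 2 each; difference -2.37, SE 0.35, edgeR adjusted p = 0.00108).

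Other miRNAs passed in adult but not in neonatal cells, and the difference between the ages passed as well. MiR-30a-5p was at 3646 CPM in neonatal TN and 3641 and 3906 CPM in neonatal VM cells, against 1512 ± 86.2 CPM in adult TN and 13971 ± 4145 CPM in adult VM cells (SD, n = 2 each; difference -3.16, SE 0.33, edgeR adjusted p = 8.57e-05). MiR-182-5p, induced by interleukin 2 and a repressor of Foxo1, was at 4007 CPM in neonatal TN and 3460 and 3600 CPM in neonatal VM cells, against 1100 ± 137 and 4574 ± 558 CPM in adult TN and VM cells (n = 2 each; difference -2.24, SE 0.30, edgeR adjusted p = 6.31e-04). MiR-183-5p, of the same cluster, had a difference of -1.99 (edgeR adjusted p = 0.00177). MiR-146a-5p rose by 2.52 in adult cells against 0.86 in neonatal cells (difference -1.66, SE 0.34, edgeR adjusted p = 0.00976). The difference for miR-150-5p had the other sign, at 0.21 in neonatal and -0.87 in adult cells (1.08, SE 0.26, edgeR adjusted p = 0.0293). The differences of miR-151-3p, miR-30a-5p, miR-182-5p, miR-146b-5p, miR-486a-5p and miR-486b-5p passed in all 18 alternatives that could give them. The count of 23 fell to 9 and 6 without adult TN replicate 1 and 2, and to 13 and 15 without neonatal VM replicate 1 and 2, and rose to 86 and 59 without adult VM replicate 1 and 2.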

How the data were processed

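The deposited table holds estimated counts, some of them fractional, for each mature miRNA and precursor in 1 column per library. The genome build is mm10 per the submitters' processing notes; the aligner and counter are not given in the sources used here. Per the labels' protocols, cells were sorted to high purity and libraries were made with the Illumina TruSeq small RNA kit. Lines of 1 mature name were summed (1978 names) and rounded. Names with at least 10 CPM in 2 of 7 libraries were tested (15.8 to 32.8 counts) with TMM factors and edgeR 4.0.16 (R 4.3.3), quasi-likelihood, robust dispersions, a cell means model with 3 residual degrees of freedom, and adjustment at 0.05 over 288 miRNAs. CPM are TMM-scaled. The method was tested on simulated data.

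Named miRNAs were, for calls averaging 50 CPM or more over both groups, up to 15 of the greatest rises and falls, the 10 most abundant, other arms, tested members of the 14 family and 7 marker lists, and the 5 smallest p for the interaction; the other called miRNAs, and the 11 names at the CPM minimum in the neonatal TN library only, were named after their values were seen. Members and lists were chosen with earlier results of these data known. Alternatives also used DESeq2 1.42.0 and limma 3.58.1. Of the 288, 236 matched RefSeq names, and of the 28 called 19. Hosts are from GENCODE M21 (GRCm38), on the same strand.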

Additional observations from a re-analysis of the deposited data

Results flagged for a closer look

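The test of the difference between the neonatal and adult subset effects (neonatal minus adult, log2 scale, edgeR quasi-likelihood test) passed for 23 miRNAs, of which 20 met the rule for named miRNAs. The other 3 were miR-192-5p (-1.16), miR-7a-5p (-3.18) and miR-877-5p (2.78), named after their values were seen. In the main comparison's calls it was -3.25 for miR-151-3p, -2.24 for miR-151-5p, -2.65 for miR-146b-5p, -2.37 for miR-486a-5p and -2.36 for miR-486b-5p (edgeR adjusted p = 6.48e-05 for the first and 0.00108 for the other 4). Among miRNAs called in adult cells only, it was -3.16 for miR-30a-5p, -2.56 for miR-30a-3p, -2.24 for miR-182-5p, -1.99 for miR-183-5p and -1.66 for miR-146a-5p. It was -1.31 for miR-203-3p and -2.46 for miR-143-3p, calls lost in 5 of 18 and 4 of 17 alternatives. These markers of epithelial and stromal cells stood at 202 and 67.2 CPM in neonatal TN cells. The difference was -1.49 for miR-301b-3p, -1.72 for miR-301a-3p, -1.03 for let-7g-5p and -1.66 for miR-98-5p. Those calls were lost in 8, 10, 11 and 12 of 18 alternatives in that order, upper quartile factors among them. Positive differences were those of miR-150-5p (1.08), miR-125a-5p (1.5), let-7e-5p (1.77) and miR-497a-5p (2.72), the last with 8 counts in neonatal TN cells. They were lost in 2 of 18, 4 of 18, 6 of 17 and 7 of 17 alternatives in that order. No group had the 4 libraries that a check for outlying samples needs.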

How the results depend on the processing

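All 28 calls kept their direction in each of the 19 alternatives that gave them an adjusted p, and 15 passed in each. The counts of called, higher and lower miRNAs (28, 9 and 19) went to 53, 21 and 32 with no filter, 49, 19 and 30 with edgeR's looser filterByExpr filter, and 80, 44 and 36 with only the neonatal libraries. Upper quartile factors gave 52 called and 38 higher, library totals 21 higher, RLE factors 14 higher and DESeq2 14 higher. Leaving out 1 library each gave 16 to 77 called, 5 to 30 higher, 10 to 47 lower and 6 to 86 for the interaction. The interaction count of 23 was 14 without the 5 most abundant miRNAs, 43 with no filter, 43 with filterByExpr and 38 with DESeq2. The cause of these moves was not tested, except that the looser filters test 878 and 433 miRNAs. The neonatal TN library could not be left out.

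With the replicate block, 25 passed, 8 higher and 17 lower, 24 of them shared with the 28. The neonatal groups share only replicate number 1, and the deviations of replicates correlated at 0.02, 0.14 and -0.16 between groups, so the numbers were not taken to pair the samples. Calls on few counts in TN (miR-29c-5p and miR-1948-3p, 4 counts each) are limited by depth.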
